A study of Mus musculus with 18 samples.

Results

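F-box proteins are the substrate receptors of SCF ubiquitin ligases, and the mRNAs described here are those of this family together with the SCF core and the factors that swap its receptors. A gene was taken when its name in the deposited dorsal root or sciatic nerve table was Fbxl, Fbxo or Fbxw followed by a number, or was Cand1, Cand2, Cul1, Skp1a or Rbx1. This gave 56 of the 15552 named genes, 55 in the dorsal root table and 51 in the sciatic nerve table. The 56 were 7 FBXW genes, 16 FBXL genes, 28 FBXO genes, 3 core subunits and 2 exchange factors. Of these, 50 had a transcript listed in both tables and form the base of the comparisons, among 12697 such genes. The rule also caught Fbxl12os, an antisense RNA of the Fbxl12 locus and not an F-box mRNA. Fbxw7 was not analysed here.

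The libraries were made from axoplasm of C57B6 mice, a crude lysate of ground nerve tissue enriched for axonal content. The groups were RNA that came down with a rabbit antibody to Kif5A, a heavy chain of the kinesin-1 motor of neurons, RNA that came down with rabbit IgG of the same isotype, and input, the axoplasm RNA before precipitation. Each was made from sciatic nerve, far out along the axon, and from dorsal root, close to the cell body, with 3 libraries in each of the 6 groups. Per the labels, each repeat pooled 5 animals and the 3 repeats were independent. All animals carried the same strain label, and no genetic change or treatment is named. The comparison of Kif5A with IgG asks which RNAs came down with the motor beyond what any rabbit antibody and beads retain.

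In an SCF ligase the scaffold cullin Cul1 holds the RING protein Rbx1, which brings the ubiquitin-loaded enzyme, at one end and the adaptor Skp1 with an F-box protein at the other. The F-box protein chooses the target: FBXW members carry WD40 repeats, FBXL members leucine-rich repeats, and FBXO members other domains or none. Cand1 and its paralog Cand2 bind the cullin when it lacks the modifier Nedd8 and let one F-box receptor leave for the next. In neurons such ligases are known for acting on synapses and on axon survival.

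The coding sequences of close relatives decide whether their counts can be told apart. Below, each pair is shown over 60 coding bases that hold its longest identical run, 5′ to 3′, from GENCODE M21 on GRCm38. Bases that differ within the pair are in capitals. The first pair is shown because Cand2 had the smallest p of all members for Kif5A against IgG and Cand1 did not follow it, the second because the shared transcript of Fbxo44, Fbxo44-205, had no count in IgG precipitates of dorsal root.
Cand2: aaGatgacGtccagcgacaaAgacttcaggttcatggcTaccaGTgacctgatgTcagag
Cand1: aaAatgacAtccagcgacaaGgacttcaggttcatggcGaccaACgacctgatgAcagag
Fbxo44: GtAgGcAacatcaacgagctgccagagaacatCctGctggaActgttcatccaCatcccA
Fbxo6: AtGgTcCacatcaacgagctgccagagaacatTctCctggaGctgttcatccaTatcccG
These are coding bases 40 to 99 of both Cand2 and Cand1, 7 to 66 of Fbxo44 and 1 to 60 of Fbxo6, counted from the start codon. In these windows 53 of 60 bases agreed for the Cand pair and 51 of 60 for the Fbxo44 pair. The longest run without a difference over the coding sequences was 17 bases for Cand2 and Cand1 and 25 bases for Fbxo44 and Fbxo6. Over the aligned coding positions the pairs were 63.0% and 67.9% identical. No run of 50 bases of the listed Cand1, Fbxo44 or Fbxo6 transcripts recurs in a transcript of another gene, and for Cand2 0.570% of such runs do, in the predicted gene Gm36988. Cand2 lies on chromosome 6 (115774538 to 115805557, plus strand) and Cand1 on chromosome 10 (119199255 to 119240055, minus strand). Fbxo6 (148145716 to 148152140), Fbxo44 (148152800 to 148160482) and Fbxo2 (148160621 to 148166424) stand side by side on chromosome 4. Fbxo27 (28692849 to 28699338) and Fbxo17 (28716804 to 28738144), further members of this subfamily, which is known for receptors that bind sugar chains, neighbour each other on chromosome 7.

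Counts of named rows summed to between 11584418 and 22580824 per library, and all levels are CPM, counts scaled to a common library size, with TMM factors unless stated. The 50 genes together held between 1467 and 2294 CPM of a library, relative to its total alone. IgG libraries had the most genes without a count: 22% of the 50 genes had a 0 in at least 1 IgG library of sciatic nerve and 20.0% in dorsal root, against 15.7% of all genes in each. For the 26 members averaging 10 CPM or more, the median coefficient of variation between the 3 libraries was 24.4%, 34.7% and 28.5% in Kif5A, IgG and input of sciatic nerve. In Kif5A, IgG and input of dorsal root it was 18.6%, 54.1% and 17.9%. Markers of sensory neurons (11 of 14 listed were measured) summed to between 1034 and 2408 CPM in Kif5A, 1116 and 1999 in IgG and 1431 and 4109 in input of sciatic nerve. In dorsal root the same sums were 2102 to 3838, 2113 to 3169 and 3528 to 4231 CPM. RNA of myelinating Schwann cells (11 of 12 markers) exceeded these in every library, at 5682 to 29912 CPM, so the lysates held RNA of other cells too. Adipocyte markers (7 of 9) reached 5820 to 59969 CPM in Kif5A, 26711 to 79790 CPM in IgG and 3812 to 13311 CPM in input of sciatic nerve, with replicate 3 lowest in each group, and stayed between 120 and 344 CPM in dorsal root. No measured marker of these lists was at 0 in a whole group.

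**Figure D1:**
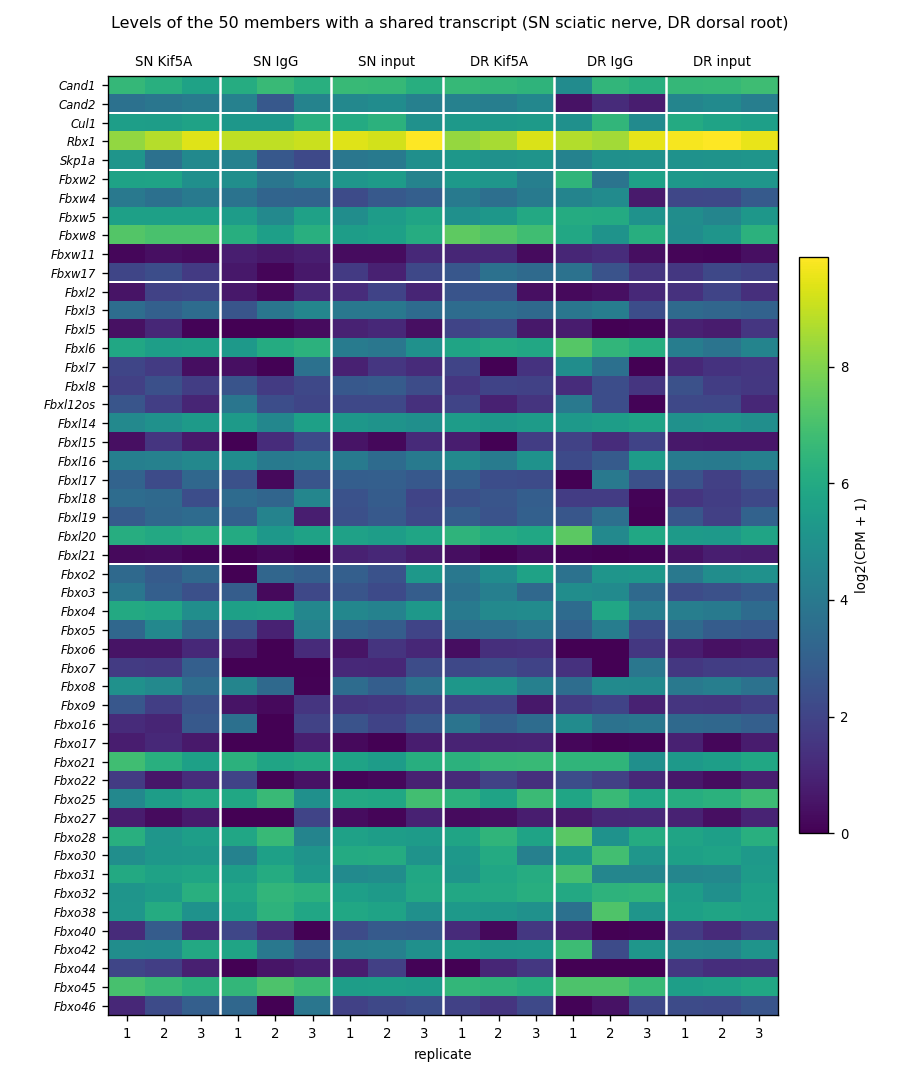
Level of each of the 50 members with a shared transcript (rows, by role and number) in each of the 18 libraries (columns, 3 replicates per group), as log2(CPM + 1) in colour. Rbx1 is the brightest row in every library, and the dark cells gather in the IgG columns, as for Cand2 in dorsal root and Fbxo7 in sciatic nerve.

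The levels in input came first, because they set what could come down at all. Compared per kilobase of listed transcript, Rbx1 stood highest in both tissues, at 436 ± 109 CPM per kilobase in input of sciatic nerve and 503 ± 57.7 in that of dorsal root (SD, n = 3 each). Next came Fbxo25, with 39.3 ± 16.4 and 42.6 ± 10.2 CPM per kilobase in input of sciatic nerve and of dorsal root. In sciatic nerve Cul1 (19.7 ± 7.76), Fbxw2 (19.1 ± 7.45) and Fbxw5 (17.4 ± 5.44 CPM per kilobase) followed, and these 3 did not differ beyond their spread. In dorsal root the places after Fbxo25 went to Skp1a (24.0 ± 0.798), Fbxw2 (21.3 ± 2.75) and Fbxo2 (18.9 ± 6.47 CPM per kilobase). The lowest were Fbxl5, the F-box protein that senses iron, Fbxo27, Fbxo22, Fbxo17 and Fbxw11, a paralog of beta-TrCP, in both tissues apart from Fbxo27 in dorsal root. The Fbxl5 level is that of Fbxl5-206, a transcript with a retained intron and the 1 listed in both tables, which held 56 of the 196 Fbxl5 counts in input of dorsal root. Fbxw11 had 0.148 ± 0.142 CPM per kilobase in sciatic nerve and 0.0441 ± 0.0375 in dorsal root. Its shared transcript held 28 of its 58 counts in input of sciatic nerve and all 8 in that of dorsal root. Fbxl21, a regulator of the clock proteins called cryptochromes, was among the 5 lowest in dorsal root, at 0.307 ± 0.0961 CPM per kilobase. The shared transcript of Fbxl21 held 29 of its 74 counts in input of dorsal root. The exchange factor Cand1 averaged 13.1 ± 2.77 CPM per kilobase in sciatic nerve and 14.5 ± 1.22 in dorsal root, and Cand2 4.18 ± 0.703 and 3.93 ± 0.701.

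**Figure D2:**
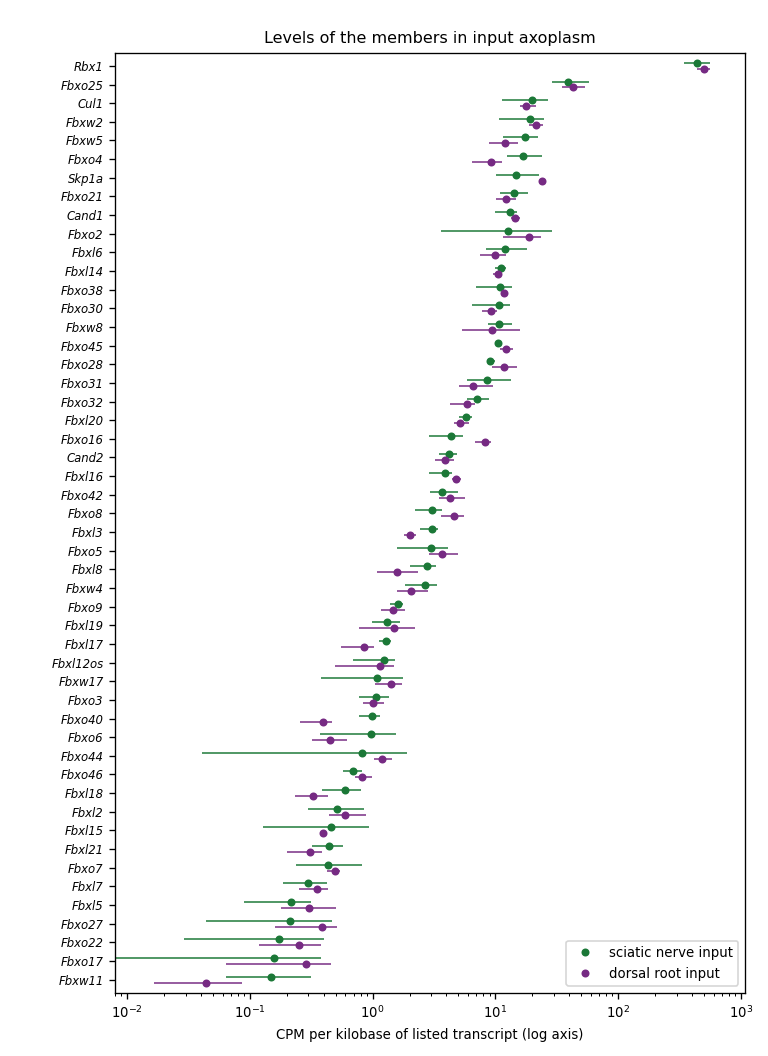
Level of the 50 members in input, in CPM per kilobase of listed transcript on a log axis; points are means and lines run from the lowest to the highest of 3 libraries, and the line of Fbxo17 in sciatic nerve leaves the axis because 1 library was at 0. Rbx1 lies apart at the top, most members lie between 1 and 43 CPM per kilobase, and the tissues overlap for most members.

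Between the inputs, sciatic nerve against dorsal root, none of 47 members tested passed an adjusted p of 0.05 in edgeR's quasi-likelihood test, against 4.12% of all genes. At an unadjusted p under 0.05, 2 members were higher in sciatic nerve, against 7.62% of all genes, and none was lower, against 6.96%. DESeq2 called 1, Fbxo40. Fbxo40, a muscle F-box protein of insulin signalling, had 3.95, 5.86 and 5.57 CPM in sciatic nerve and 2.40, 1.32 and 2.32 CPM in dorsal root. All sciatic nerve inputs were above all dorsal root inputs, with a log2 ratio of 1.36 (SE 0.48, adjusted p = 0.201). Skeletal muscle markers (9 of 14 measured) summed to 793 to 1048 CPM in sciatic nerve inputs and 86.3 to 133 CPM in dorsal root inputs, and their part in this ratio was not tested. Fbxo4 had 22.6, 19.5 and 37.6 CPM in sciatic nerve and 17.7, 15.6 and 10.1 CPM in dorsal root, also without overlap (log2 ratio 0.90, SE 0.37, adjusted p = 0.297). Fbxo16 had 4.69, 2.93 and 5.57 CPM in sciatic nerve and 9.44, 8.85 and 6.96 CPM in dorsal root, lower in every library (log2 ratio -0.91, SE 0.41, adjusted p = 0.351). Skp1a had 13.9, 16 and 29.1 CPM in sciatic nerve and 31.9, 33.0 and 34.1 CPM in dorsal root, a log2 ratio of -0.72 (SE 0.34, adjusted p = 0.378). Without replicate 3 of the sciatic nerve input, its highest, the Skp1a ratio was -1.14 with an adjusted p of 0.0039, and 2 members passed, while 20.6% of all genes did in that fit. Replicates did not overlap for 4 members higher in sciatic nerve and 4 lower, 8.51% each of the 47, against 9.97% and 11.1% of all genes. Above 0 were 23 of 47 members, against 54.4% of all genes, with a median log2 ratio of -0.091 over the members and 0.056 over all genes. In bulk lysate, fewer cells of a type and less RNA per cell cannot be told apart.

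In dorsal root, no member passed the test for Kif5A against IgG, yet Cand2 had the smallest p of the 49 members tested and counts in every library of both antibodies. Cand2 had 19.3, 17.7 and 23.0 CPM in Kif5A precipitates and 0.401, 1.31 and 0.746 CPM in IgG precipitates. The Kif5A values lay at the level of the input, which had 21.7, 25.2 and 17.6 CPM, and the IgG values were more than an order of magnitude below both. The log2 ratio of Kif5A to IgG was 4.66 (SE 0.78), a 25.3-fold difference resting on 1105 counts with Kif5A and 36 with IgG. Its unadjusted p was 5.4e-05 and its adjusted p over 12551 genes was 0.144. DESeq2 gave an adjusted p of 1.4e-10, and Cand2-201, its only listed transcript, has a false discovery rate of 2.2e-05 in the authors' deposited table. The Cand2 gene shares 53 of its 5474 exonic bases with Rpl32 on the other strand. Rpl32, a ribosomal protein mRNA, averaged 440 ± 340 CPM in Kif5A precipitates, against 510.1 ± 454 CPM in IgG precipitates of dorsal root (SD, n = 3 each), and its part in the Cand2 counts was not tested.

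The other exchange factor and the core did not show such a gap. Cand1 had 98.1, 91.8 and 85.7 CPM with Kif5A and 26.1, 89.7 and 74.3 CPM with IgG in dorsal root. The groups overlapped, with 1 IgG library low (log2 ratio 0.59, SE 0.43, adjusted p = 1.0). Cul1, the scaffold, had 38.2, 37.4 and 40.7 CPM with Kif5A and 30.4, 89.5 and 25.2 CPM with IgG. The Kif5A libraries were tightly spaced within the wide range of the IgG libraries (log2 ratio -0.26, SE 0.50). Skp1a, the adaptor, had 36.3, 31.2 and 33.2 CPM with Kif5A and 19.8, 29.8 and 31.0 CPM with IgG, higher in every library by a log2 ratio of 0.38 (SE 0.64). Rbx1, the RING subunit, had 312, 383 and 631 CPM with Kif5A and 423, 364 and 732 CPM with IgG, overlapping (log2 ratio -0.14, SE 0.37). Rbx1 and Skp1a have processed copies, and 9.78% of 50-base runs of Rbx1 and 2.79% of those of Skp1a recur in another gene, foremost the pseudogene Rbx1-ps and the predicted gene Gm12988.

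Among the F-box mRNAs of dorsal root, Fbxw8, which works with the cullin Cul7, came next. Fbxw8 had 172, 144 and 113 CPM with Kif5A and 59.7, 32.3 and 71.6 CPM with IgG. Every Kif5A library was above every IgG library, with a log2 ratio of 1.44 (SE 0.35) and an adjusted p of 0.393 in edgeR, 0.0112 in DESeq2. Of the exonic bases of Fbxw8, 1845 of 5525 overlap the antisense gene Gm9754, and 34.4% of its 50-base runs occur there too, so without strand the counts of the pair cannot be told apart. Fbxo44, by its shared transcript, had 0, 1.09 and 2.07 CPM with Kif5A and no count in any IgG library, at least 16.2-fold higher (59 counts against a floor of 3 over the group). Its Kif5A libraries also included a 0, and over all transcripts of the dorsal root table the sums were 133 counts with Kif5A, 17 with IgG and 123 in input. Over these the log2 ratio was 2.56 (SE 1.54, adjusted p = 1.0). Fbxo17 had 0.985, 0.919 and 0.983 CPM with Kif5A and 0.134, 0 and 0.0574 CPM with IgG. The 53 counts with Kif5A against 3 with IgG gave a ratio of 14.6 with an exact 95% interval of 4.73 to 73.0, which covers counting error only. Fbxl6 went the other way, with 53.4, 65.3 and 58.9 CPM with Kif5A and 154, 90.4 and 70.1 CPM with IgG. The groups did not overlap (log2 ratio -0.77, SE 0.38, adjusted p = 0.883). Fbxl2 had 4.98, 4.94 and 0.311 CPM with Kif5A and 0.200, 0.307 and 1.21 CPM with IgG, overlapping in 1 library of each (log2 ratio 2.60, SE 1.33, adjusted p = 0.91).

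Of Fbxo45, Fbxl20, Fbxo32 and Fbxo2, Fbxo45 alone did not overlap between the antibodies in dorsal root. Fbxo45, a synaptic F-box protein that pairs with Mycbp2 in axons, had 92.6, 83.6 and 71.5 CPM with Kif5A and 137, 138 and 99.8 CPM with IgG. It was lower with Kif5A in every library (log2 ratio -0.54, SE 0.29, adjusted p = 0.945). Fbxl20, a presynaptic F-box protein, had 83.6, 66.8 and 57.2 CPM with Kif5A and 164, 23.7 and 58.0 CPM with IgG (log2 ratio -0.19, SE 0.54). Fbxo32, known as atrogin-1 of muscle wasting, had 58.8, 60.9 and 72.3 CPM with Kif5A and 61.9, 82.5 and 87.2 CPM with IgG (log2 ratio -0.22, SE 0.37). Fbxo2, a sugar-binding F-box protein of neurons, had 14.3, 27.1 and 51.0 CPM with Kif5A and 12.4, 34.3 and 36.4 CPM with IgG (log2 ratio 0.20, SE 1.16). The groups of these last 3 overlapped, and the Fbxl20 ratio turned to 0.078 with a replicate block and to as much as 0.81 with 1 library left out.

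Counted over the 49 members tested in dorsal root, none passed an adjusted p of 0.05, against 0.00% of all genes. At an unadjusted p under 0.05, 4 were higher with Kif5A (Cand2, Fbxw8, Fbxo44 and Fbxo17), 8.16% of the members against 4.33% of all genes, and none was lower, against 1.64%. DESeq2 called 2, Cand2 and Fbxw8. Replicates did not overlap for 5 higher members (Cand2, Fbxl18, Fbxo17, Fbxw8 and Skp1a), against 7.83% of all genes, and for 2 lower ones (Fbxl6 and Fbxo45), against 5.43%. The median log2 ratio was -0.10 over the members and -0.0094 over all genes, and the fitted ratios ran from -2.94 to 7.29. Above 0 were 22 of 49 members, against 49.3% of all genes. By role, both exchange factors, 1 of 3 core subunits, 2 of 6 FBXW, 6 of 14 FBXL and 11 of 24 FBXO genes had a ratio above 0. The largest negative ratio rested on Fbxl7, whose IgG libraries ranged from 0 to 27.5 CPM. The largest positive ratio was fitted to Fbxo44 without an IgG count, so only its bound of 16.2-fold was measured.

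**Figure D3:**
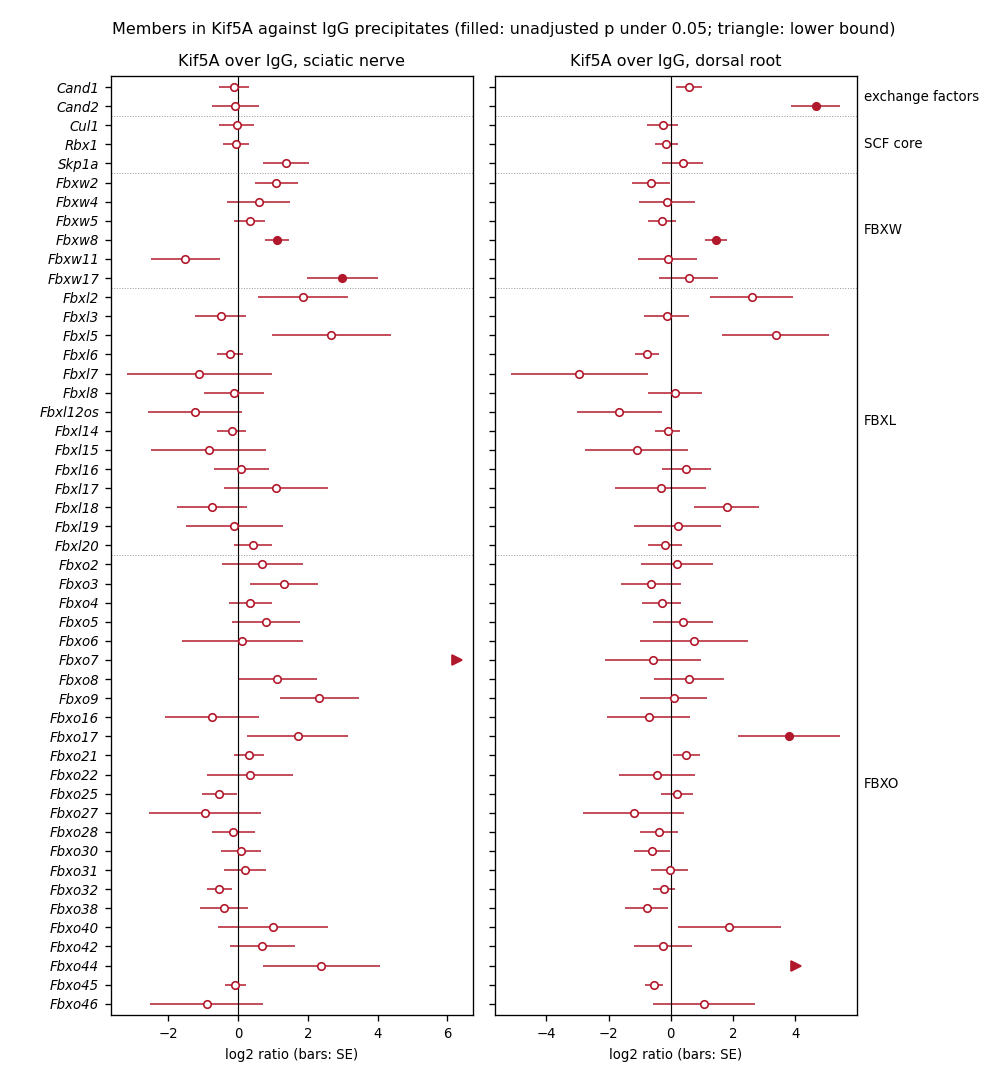
Log2 ratio of Kif5A to IgG for the 49 members tested in sciatic nerve (left) and dorsal root (right), with standard errors of the quasi-likelihood fit; filled points had an unadjusted p under 0.05, and triangles without bars are lower bounds for genes with no IgG count. Most points scatter about 0, Fbxw8 is filled in both tissues, and Cand2 stands at 4.66 in dorsal root and -0.078 in sciatic nerve.

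In sciatic nerve, Cand2 did not separate the antibodies. Cand2 had 11.8, 13.5 and 16.2 CPM in Kif5A precipitates and 19.1, 5.67 and 20.2 CPM in IgG precipitates, beside 23.1, 26.6 and 18.9 CPM in input. The Kif5A values lay inside the IgG range, and the log2 ratio of -0.078 (SE 0.67) took either sign when single libraries were left out. Cand1 had 93.9, 74.1 and 50.5 CPM with Kif5A and 67.5, 103 and 74.7 CPM with IgG (log2 ratio -0.12, SE 0.42). Cul1 had 44.7, 44.5 and 50.6 CPM with Kif5A and 36.6, 36.5 and 74.5 CPM with IgG (log2 ratio -0.045, SE 0.50). In both genes the groups overlapped. Rbx1 had 304, 430.3 and 662 CPM with Kif5A and 486, 489 and 533 CPM with IgG, also overlapping (log2 ratio -0.067, SE 0.37). Skp1a had 34.2, 12 and 24.8 CPM with Kif5A and 19.4, 5.57 and 3.50 CPM with IgG, with a log2 ratio of 1.37 (SE 0.66, adjusted p = 0.616). The highest IgG library of Skp1a exceeded the lowest Kif5A library.

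Fbxw8 was higher with Kif5A in sciatic nerve too. It had 147, 130.0 and 131 CPM with Kif5A and 71.9, 46.8 and 74.2 CPM with IgG, with no overlap (log2 ratio 1.12, SE 0.35, adjusted p = 0.291). In the authors' deposited table Fbxw8-201 has a false discovery rate of 0.0324 here and 0.0082 in dorsal root. Fbxo7, known for its part in the removal of damaged mitochondria and in inherited parkinsonism, had 2.25, 2.07 and 6.97 CPM with Kif5A and no IgG count. Its 198 counts were at least 76.9-fold above the floor of 3 counts, and edgeR's adjusted p was 0.211, DESeq2's 0.001. All of these counts lie on Fbxo7-206, a transcript annotated without a coding frame. Fbxw17 had 3.12, 4.01 and 2.19 CPM with Kif5A and 0.535, 0.0977 and 0.545 CPM with IgG, again without overlap (log2 ratio 2.99, SE 1.03, adjusted p = 0.346, DESeq2 0.0297). Only 21% of its counts over all groups were on a coding transcript. Fbxo9 had 5.43, 2.55 and 4.73 CPM with Kif5A and 0.438, 0.195 and 1.91 CPM with IgG (log2 ratio 2.33, SE 1.14, adjusted p = 0.636). Fbxw2 had 50.8, 51.8 and 29.1 CPM with Kif5A and 28.5, 13.8 and 21.1 CPM with IgG (log2 ratio 1.09, SE 0.62, adjusted p = 0.723), with 21.2% of its counts on coding transcripts. Neither gene overlapped between the antibodies.

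In sciatic nerve Fbxo45, Fbxl20, Fbxo32 and Fbxo2 each overlapped between the antibodies. Fbxo45 had 127, 101 and 80.6 CPM with Kif5A and 91.8, 138 and 106 CPM with IgG (log2 ratio -0.077, SE 0.29). Fbxl20 had 69.6, 61.3 and 69.6 CPM with Kif5A and 64.9, 37.3 and 51.0 CPM with IgG (log2 ratio 0.43, SE 0.54). Fbxo32 had 34.2, 41.5 and 73.8 CPM with Kif5A and 55.7, 89.1 and 79.6 CPM with IgG (log2 ratio -0.54, SE 0.37). Fbxo2 had 9.37, 6.22 and 8.98 CPM with Kif5A and 0, 8.60 and 7.04 CPM with IgG (log2 ratio 0.69, SE 1.17). The inputs of sciatic nerve had 6.97, 4.66 and 37.1 CPM of Fbxo2. Red blood cell markers (6 of 6) summed to 611 to 676 CPM in Kif5A precipitates, 259 to 362 CPM in IgG precipitates and 1607 to 1625 CPM in input of this tissue. Skeletal muscle markers (9 of 14) summed to 499.9 to 735 CPM with Kif5A and 366 to 489 CPM with IgG, and macrophage markers (10 of 10) to 2719 to 3005 CPM with Kif5A and 2184 to 2535 CPM with IgG. These 3 sums did not overlap between the antibodies, while the adipocyte sums given above did, and their part in the ratios of sciatic nerve was not tested.

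None of the 49 members tested in sciatic nerve passed an adjusted p of 0.05, against 0.0478% of all genes. At an unadjusted p under 0.05, 3 were higher with Kif5A (Fbxo7, Fbxw8 and Fbxw17), 6.12% of the members against 6.18% of all genes, and none was lower, against 2.26%. DESeq2 called 2, Fbxo7 and Fbxw17. Replicates did not overlap for 6 higher members, against 9.35% of all genes, and for 1 lower member, Fbxw11, against 6.62%. For Fbxw11 that rests on its shared transcript, with 13 counts with Kif5A and 44 with IgG. Over all its transcripts of the sciatic nerve table the sums were 45 and 52 counts (log2 ratio 0.069, SE 0.90). The median log2 ratio was 0.12 over the members and -0.015 over all genes. Above 0 were 27 of 49 members, against 49.3% of all genes. By role, neither exchange factor, 1 of 3 core subunits, 5 of 6 FBXW, 5 of 14 FBXL and 16 of 24 FBXO genes had a ratio above 0.

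The change of the Kif5A to IgG ratio from one tissue to the other was tested directly. No member passed an adjusted p of 0.05, against 0.0159% of all genes (0.00797% higher in sciatic nerve and 0.00797% lower), while DESeq2 called 2, Cand2 and Fbxo7. At an unadjusted p under 0.05 edgeR had Fbxo7 higher in sciatic nerve, against 3.67% of all genes, and Cand2 lower, against 2.71%. The Cand2 ratio was lower in sciatic nerve than in dorsal root, a log2 difference of -4.74 (SE 1.00, unadjusted p = 0.00041, adjusted p = 0.207) that ran from -5.23 to -4.41 with any 1 precipitate left out. The IgG libraries held 953 Cand2 counts in sciatic nerve and 36 in dorsal root, while the Kif5A libraries held 751 in sciatic nerve and 1105 in dorsal root. For Fbxo7 the IgG libraries held 0 counts in sciatic nerve and 272 in dorsal root, nearly all in 1 library at 14.2 CPM, beside 1.67 and 0 CPM. The adjusted p of Fbxo7 was 0.492. Fbxw2 differed by 1.73 (SE 0.87, adjusted p = 0.864). Fbxo44, with 3.12, 2.59 and 0.827 CPM with Kif5A and 0, 0.488 and 0.772 CPM with IgG in sciatic nerve, had an adjusted p of 0.919. The median difference was 0.25 over the members and 0.0066 over all genes.

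**Figure D4:**
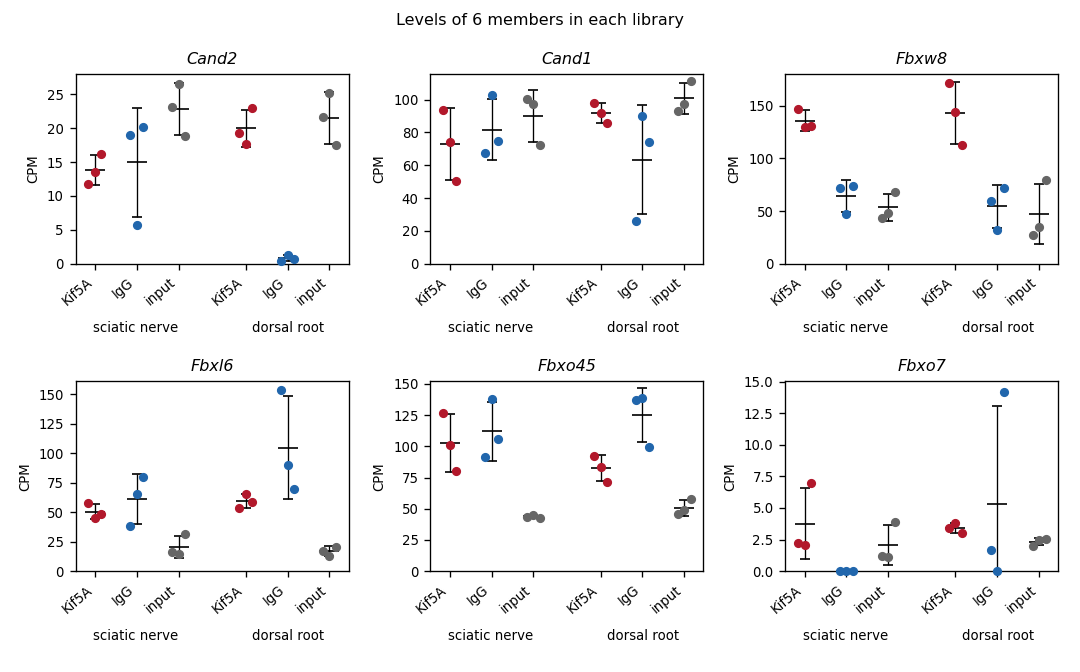
Level in CPM of 6 members in each library of Kif5A precipitates (red), IgG precipitates (blue) and input (grey) of sciatic nerve and dorsal root; points are libraries, the dash is the mean and bars are 1 SD (n = 3). Cand2 is near 0 only with IgG in dorsal root, Fbxw8 is highest with Kif5A in both tissues, Fbxl6 and Fbxo45 are low in input, and Fbxo7 has no IgG count in sciatic nerve.

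Against input, Kif5A precipitates of dorsal root held relatively more of several F-box mRNAs and less Rbx1, without a member passing the test. Fbxl6 had 53.4, 65.3 and 58.9 CPM with Kif5A and 17.3, 12.9 and 20.8 CPM in input, higher in every library (log2 ratio 1.8, SE 0.40, adjusted p = 0.27). Fbxw8 stood at 172, 144 and 113 CPM with Kif5A and 26.9, 34.9 and 80.0 CPM in input, also without overlap (log2 ratio 1.60, SE 0.40, adjusted p = 0.288). Fbxo45 averaged 82.6 ± 10.6 CPM with Kif5A, against 50.8 ± 6.49 CPM for input (SD, n = 3 each; log2 ratio 0.70, SE 0.27, adjusted p = 0.456). Rbx1, with 312, 383 and 631 CPM with Kif5A and 855, 932 and 741 CPM in input, was lower in every library by 0.93 on the log2 scale (SE 0.34, adjusted p = 0.433). With only these 2 groups in the fit, 3 members passed, Fbxl6 (adjusted p = 0.0349), Fbxw8 (0.0488) and Fbxw4, and 390 genes in all. DESeq2 called Fbxl6 and Fbxw8, and the authors' deposited table lists both and Rbx1 at false discovery rates of 0.0038, 0.0078 and 0.0273. Oligodendrocyte markers (3 of 7 measured) summed to 2405 to 2681 CPM with Kif5A, 1873 to 2811 CPM with IgG and 819 to 1604 CPM in input of dorsal root. This list shares Mag with that of myelinating Schwann cells, and it summed to between 206 and 847 CPM in the libraries of sciatic nerve. Skeletal muscle markers (9 of 14) summed to 51.3 to 71.6 CPM with Kif5A, 34.7 to 59.6 CPM with IgG and 86.3 to 133 CPM in input. Both sums separate either precipitate from input, and their part in these ratios was not tested.

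Of the 50 members tested for Kif5A against input in dorsal root, none passed an adjusted p of 0.05, against 0.00% of all genes. At an unadjusted p under 0.05, 6 were higher (Fbxl6, Fbxo21, Fbxo45, Fbxw11, Fbxw4 and Fbxw8), 12% against 3.28% of all genes, and 1 was lower (Rbx1), 2% against 5.11%. Replicates did not overlap for 17 higher members, 34% of the 50 against 15.8% of all genes, and for 4 lower ones (Cul1, Fbxl21, Fbxo38 and Rbx1), 8% against 15.6%. For Fbxl21 that rests on its shared transcript, with 9 counts with Kif5A and 29 in input. Over all its transcripts of the dorsal root table the sums were 63 and 74 counts (log2 ratio -0.49, SE 1.45). The median log2 ratio was 0.45 over the members and 0.055 over all genes. Above 0 were 34 of 50 members, against 52.8% of all genes. With library size alone as scaling the median of all genes moved up by 0.33 to 0.39 and that of the members to 0.77, so both are relative to the scaling.

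In sciatic nerve the same mRNAs headed the comparison of Kif5A with input. Fbxo45 had 127, 101 and 80.6 CPM with Kif5A and 43.8, 45.2 and 43.0 CPM in input (log2 ratio 1.23, SE 0.27, adjusted p = 0.506, DESeq2 0.0038). Fbxw8 had 147, 130.0 and 131 CPM with Kif5A and 43.8, 48.4 and 68.2 CPM in input (log2 ratio 1.35, SE 0.40, adjusted p = 0.579). Fbxl6 had 57.6, 45.4 and 48.3 CPM with Kif5A and 16.2, 14.2 and 31.2 CPM in input (log2 ratio 1.30, SE 0.40, adjusted p = 0.579). In all 3 genes every Kif5A library was above every input. Fbxl21 had 0.187, 0.236 and 0.0591 CPM with Kif5A and 0.863, 1.12 and 0.626 CPM in input, on 9 and 38 counts (log2 ratio -2.37, SE 1.12, adjusted p = 0.819). None of the 50 members passed an adjusted p of 0.05, against 0.00789% of all genes. At an unadjusted p under 0.05, 3 were higher, 6% against 2.56% of all genes, and 1 lower, 2% against 3.52%. DESeq2 called 1, Fbxo45. Replicates did not overlap for 8 higher members, 16% against 8.22%, and for 2 lower ones, Cand2 and Fbxl21, 4% against 9.23%. Above 0 were 32 of 50, against 51.1% of all genes, and the median log2 ratio was 0.30 over the members and 0.019 over all genes. The red blood cell and muscle sums given above were lower with Kif5A than in input without overlap, and their part was not tested.

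IgG precipitates, which carry no antibody to Kif5A, differed from input in members of the same set. In dorsal root edgeR called 3 of 50 members, against 1.23% of all genes: Fbxl6 and Fbxo45 rose with IgG, against 0.560% of all genes, and Cand2 fell, against 0.670%. Fbxl6, with 154, 90.4 and 70.1 CPM with IgG and 17.3, 12.9 and 20.8 CPM in input, rose by a log2 ratio of 2.62 (SE 0.42, adjusted p = 0.0148). Fbxo45, with 137, 138 and 99.8 CPM with IgG and 45.6, 48.8 and 58.1 CPM in input, rose by 1.30 (SE 0.27, adjusted p = 0.0395). Cand2 fell to 0.817 ± 0.456 CPM with IgG, against 21.5 ± 3.83 CPM in input (SD, n = 3 each), a log2 ratio of -4.71 (SE 0.63, adjusted p = 0.0044). None of the 3 overlapped between the groups. Rbx1, lower with Kif5A than in input, was lower in every IgG library too, without a call. It had 423, 364 and 732 CPM with IgG and 855, 932 and 741 CPM in input. Fbxo44 had no count with IgG and 2.01, 1.44 and 1.52 CPM in input, at least 25.4-fold lower, with an adjusted p of 0.0789. That bound holds for its shared transcript Fbxo44-205, and over all its transcripts of the table, with 17 IgG and 123 input counts, the log2 ratio was -2.58 (SE 1.31, adjusted p = 0.28). With IgG, at an unadjusted p under 0.05, 7 members were higher, 14% against 9.12% of all genes, and 4 lower, 8% against 10.3%. The replicates of 8 higher members did not overlap, against 12.3% of all genes, nor did those of 9 lower ones, against 18.1%. Above 0 were 35 of 50, against 52.3% of all genes. The oligodendrocyte and muscle sums given above differ between these groups too. The sensory neuron sum was lower with IgG without overlap, at 2113 to 3169 CPM against 3528 to 4231 CPM in input. The part of these 3 sums was not tested.

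These 3 calls depended on the fit, although the ratios held. With only the 2 groups in the fit, no member and no gene passed (adjusted p = 0.102 for each of the 3), and over all transcripts of the dorsal root table none did either (0.0536 each). With single libraries left out, Cand2 remained called in 6 of 6 fits (adjusted p 0.0045 to 0.0265). Fbxl6 lost its call without replicate 1 of IgG (adjusted p = 0.0511) and without replicates 1 or 2 of input (0.0901 and 0.0992). Fbxo45 lost it without any 1 library but replicate 3 of IgG, with adjusted p up to 0.158. Over all genes there were 156 calls with all libraries. Without replicates 1, 2 or 3 of IgG there were 8, 60 and 1339, and without replicates 1, 2 or 3 of input 5, 6 and 13. The 156 were 71 higher and 85 lower, and with library size alone as scaling they were 203 higher and 99 lower.

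In sciatic nerve edgeR called 3 of 50 members for IgG against input, against 3.74% of all genes. Fbxo45 rose, with 91.8, 138 and 106 CPM with IgG and 43.8, 45.2 and 43.0 CPM in input (log2 ratio 1.35, SE 0.27, adjusted p = 0.0196). Fbxl6 rose, with 37.9, 65.6 and 79.5 CPM with IgG and 16.2, 14.2 and 31.2 CPM in input (log2 ratio 1.57, SE 0.40, adjusted p = 0.0419). Fbxo7 fell to 0 counts with IgG, against 100 counts and 1.17, 1.12 and 3.87 CPM in input, at least 46.3-fold lower (adjusted p = 0.0376). None of these overlapped between the groups, and genes that rose were 1.37% of all genes tested, those that fell 2.37%. Fbxl21, with 3 counts with IgG and 38 in input, had a ratio of 17.6 (exact 95% interval 5.58 to 89.1) and an adjusted p of 0.0801. With IgG, at an unadjusted p under 0.05, 2 members were higher, 4% against 8.81% of all genes, and 4 lower, 8% against 10.4%. The replicates of 4 higher members did not overlap, against 9.89% of all genes, nor did those of 7 lower ones, against 14.2%. Above 0 were 27 of 50, against 50.6% of all genes.

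The sciatic nerve calls were lost in the same ways. With only the 2 groups in the fit the adjusted p was 0.112 for Fbxo45, 0.235 for Fbxl6 and 0.0871 for Fbxo7, and over all transcripts of the table it was 0.0716, 0.103 and 0.0677. Without replicate 1 or 2 of input no member remained, with an adjusted p for Fbxo45 of 0.069 and 0.0616. Fbxl6 also lost its call without replicate 2 or 3 of IgG (0.0766 and 0.0657). Fbxo7 kept it without replicate 3 of IgG alone (0.0483) and otherwise had an adjusted p between 0.0689 and 0.0766. The count over all genes was 474, and 53 to 849 with 1 library left out. The adipocyte, red blood cell, muscle and macrophage sums also differ between these groups without overlap (macrophage markers at 2858 to 3756 CPM in input), and their part was not tested.

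The 6 members listed in a single table are described in that tissue only. Fbxo36 is listed by Fbxo36-203 alone, a transcript annotated without a coding frame. Fbxo36 had 0, 1.26 and 1.40 CPM with Kif5A, no IgG count, and 1.12, 1.13 and 0.796 CPM in input of dorsal root. The 49 counts with Kif5A were at least 13.5-fold above the floor of 3 counts for IgG. Fbxl22, a muscle Z-disc protein, had 3.56, 0.574 and 0.0518 CPM with Kif5A, 0.134, 0 and 0 CPM with IgG, beside 1.06, 0.628 and 0.995 CPM in input. Its ratio of Kif5A to IgG was 31.4 (76 and 2 counts, exact 95% interval 8.39 to 264), with most Kif5A counts in 1 library. Fbxo10 and Fbxo33 overlapped between Kif5A and IgG in dorsal root, with means of 5.93 ± 5.21 (Kif5A) and 5.04 ± 4.59 CPM (IgG) for Fbxo10, and of 1.65 ± 1.47 (Kif5A) and 4.64 ± 2.72 CPM (IgG) for Fbxo33 (SD, n = 3 each). Fbxw15 had 1.26, 1.72 and 1.03 CPM with Kif5A and 0, 0 and 1.03 CPM with IgG. Fbxo18, listed in sciatic nerve by a transcript with a retained intron of the gene now named Fbh1, had 0.437, 0.990 and 0.295 CPM with Kif5A and 8.02, 6.25 and 0 CPM with IgG. None of those that could be tested over their own table passed the adjusted p of 0.05 for Kif5A against IgG.

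The listed transcripts limit what a gene's counts stand for. The tables list 93 transcripts of the members, of which 64 are in both, and 41 of the 50 members rest on 1 shared transcript. The shared counts of 42 members are all on protein-coding transcripts, while those of Fbxo7, Fbxl5 and Fbxl12os are on none. For Fbxo7 the coding transcripts Fbxo7-202 and Fbxo7-204 are listed for dorsal root, where they had 140 and 181 counts with Kif5A, 75 and 144 with IgG and 63 and 65 in input. Over all Fbxo7 transcripts of dorsal root the log2 ratio of Kif5A to IgG was -0.064 (SE 0.81). For Fbxl5 the shared transcript with a retained intron had 133 counts with Kif5A and 11 with IgG in dorsal root, while the coding transcript Fbxl5-202 had 15 and 234. In the authors' deposited table, which tests transcripts one by one, 7 of 88 member transcripts of dorsal root and 6 of 69 of sciatic nerve have a false discovery rate under 0.05 for Kif5A against IgG. That is 7.95% and 8.70% of them, against 6.61% and 6.72% of all named transcripts of the authors' deposited table. Against input it is 3 of 88 in dorsal root and 1 of 69 in sciatic nerve, beside 2.91% and 1.19% of all named transcripts there. Among these, Fbxo7-206 and Fbxo9-203 in sciatic nerve and Fbxo44-205, Fbxo36-203 and Fbxl8-202 in dorsal root had 0 IgG counts, so no measured fold change stands behind their calls. Fbxl8-202 had 33 counts with Kif5A and 0 with IgG, beside 140 and 105 for the coding transcript Fbxl8-201.

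The rest of the pathway was read from 48 listed genes that are not members, 39 of them tested with the precipitates. None passed an adjusted p of 0.05 for Kif5A against IgG. In edgeR at an unadjusted p under 0.05, 0 of 39 differed in dorsal root and 1 was higher in sciatic nerve. That gene was Kdm2b, a histone demethylase with an F-box, with 3.81, 4.48 and 0.295 CPM with Kif5A and 0.0488, 0.195 and 0 CPM with IgG (log2 ratio 5.08, SE 2.09, adjusted p = 0.492). In dorsal root Kdm2b lay the other way, at 0.710 ± 0.996 CPM in Kif5A precipitates, against 8.77 ± 8.25 CPM in IgG precipitates (SD, n = 3 each; log2 ratio -3.54, SE 1.91). Above 0 in sciatic nerve, where 49.3% of all genes were, stood 1 of 4 F-box genes with other names, 0 of 3 partners of Fbxo45, 5 of 7 other cullins and RING subunits, 6 of 8 neddylation genes, 7 of 9 subunits of the COP9 signalosome, which removes Nedd8, and 7 of 8 E1 and E2 enzymes. In dorsal root, also against 49.3% of all genes, these counts were 0 of 4, 2 of 3, 5 of 7, 5 of 8, 4 of 9 and 4 of 8. Cops8, a signalosome subunit, averaged 211 ± 56.7 CPM in Kif5A precipitates, against 170 ± 13.9 CPM in IgG precipitates of sciatic nerve (log2 ratio 0.36, SE 0.26). Ube2r2, an E2 enzyme that works with SCF ligases, averaged 612 ± 60.4 CPM, against 515 ± 69.6 CPM (log2 ratio 0.29, SE 0.24). Rnf7, the RING subunit of Cul5 ligases, averaged 864 ± 509 CPM, against 671 ± 108 CPM (log2 ratio 0.41, SE 0.41). Ube2f, the Nedd8 conjugating enzyme of Cul5, averaged 33.5 ± 20.2 CPM, against 15.8 ± 11.8 CPM (log2 ratio 1.12, SE 0.68). Of the partners of Fbxo45, Mycbp2 averaged 7.6 ± 7.40 CPM in Kif5A precipitates, against 12.6 ± 12.5 CPM in IgG precipitates of sciatic nerve (log2 ratio -0.72, SE 1.09), and 4.15 ± 0.737 CPM, against 3.70 ± 3.84 CPM, in dorsal root (log2 ratio 0.22, SE 1.09). Nmnat2, the axon survival enzyme that Fbxo45 and Mycbp2 act on, averaged 29.0 ± 4.24 CPM in Kif5A precipitates, against 20.2 ± 14.9 CPM in IgG precipitates of dorsal root (log2 ratio 0.57, SE 0.75), and 15.6 ± 7.77 CPM, against 17.3 ± 11.4 CPM, in sciatic nerve (log2 ratio -0.12, SE 0.75). Across all comparisons 1 listed gene passed, Dcun1d5, a helper of cullin neddylation, which rose to 161 ± 50.4 CPM with IgG, against 64.3 ± 11.9 CPM in input of sciatic nerve (log2 ratio 1.33, adjusted p = 0.0268).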

How the data were processed

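RNA of 18 libraries was sequenced after a SMART-Seq kit for small RNA amounts. The deposited tables, 1 per tissue, hold raw read counts per Ensembl transcript, with the authors' normalized counts, a signal scaled between libraries and not used here. Per the file headers, each also gives p-values, with false discovery rates, and log2 fold changes by the authors. The tools CASAVA 1.8.2 and edgeR and the build GRCm38 (mm10) come from the submitters' processing notes. The aligner, counter and use of strand were not given in the sources used here.

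Counts of the 16878 named transcripts in both tables were summed per gene, and library sizes were the named rows of each table. Rows without a gene name held 0.138% to 0.237% of a library and were left out. Groups were compared in R 4.3.3 with edgeR 4.0.16 (robust quasi-likelihood test, TMM factors, default filter by group), two-sided, with Benjamini-Hochberg adjustment over all genes tested and a threshold of 0.05. Kif5A against IgG came from a fit of the 12 precipitates, comparisons with input from all 18 libraries, and that between inputs from the 6 inputs. Ratios against no count are bounds against a floor of 3 counts per group; with 1 to 3 counts an exact 95% interval is given. Both cover counting error only, since PCR reads are not independent molecules. Replicates differed beyond sampling noise. By chi-square per degree of freedom, replicates 1 and 2 were nearest each other in each of the 6 groups. In input of sciatic nerve the value was 16.2 between them, against 287 and 289 from each to replicate 3. In IgG of sciatic nerve it was 278, against 487 and 390. What set replicate 3 apart was not tested. Alternatives were RLE factors or library size alone, no filter, DESeq2 1.42.0, all transcripts of the tissue's own table, only the 2 groups compared, a replicate block and each library left out. The fit was also run on simulated counts with the same spread in every group, which does not test it at the wider spread of the IgG libraries.

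The titles number replicates 1 to 3, and no label says that equal numbers share animals. Deviations from the group means correlated above 0.1 for every equal-numbered pair of Kif5A with IgG in dorsal root (0.104 to 0.363). The same held for Kif5A with input in dorsal root (0.112 to 0.247) and in sciatic nerve (0.164 to 0.416). It also held for the inputs (0.253 to 0.485) and for sciatic nerve input with dorsal root Kif5A (0.196 to 0.389). Libraries of unequal number were not compared between groups, so whether equal numbers pair the libraries was not settled. Always described are 10 members (Fbxw7 not analysed here), the 6 with the smallest p for Kif5A against IgG per tissue, the 4 with the smallest p in each other comparison, every called member, and up to 3 further genes per pathway list; other names were chosen after their values were seen. Members and lists were chosen with earlier results of these data known. Positions are from GENCODE M21.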

Additional observations from a re-analysis of the deposited data

How the results depend on the processing

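The direction and call of most results held, and the counts of calls moved most. DESeq2 called 150 genes (2 members) for Kif5A against IgG in dorsal root, 405 (2) in sciatic nerve and 187 (2) for their difference. It called 179 (2) and 52 (1) for Kif5A against input in dorsal root and sciatic nerve, 1413 (5) and 1412 (4) for IgG against input, and 1061 (1) between inputs. RLE factors and library size alone each gave 4 genes for the difference, against 2, and library size alone gave 302 for IgG against input in dorsal root. With only the 2 groups compared, 0 genes passed for Kif5A against IgG in sciatic nerve, against 6, and 0 for Kif5A against input there, against 1. For Kif5A against input in dorsal root 390 (3 members) passed. For IgG against input 0 (0 members) passed in dorsal root and 5 (0 members) in sciatic nerve. Over all transcripts of the tissue's own table the same 2 comparisons gave 0 (0) and 5 (0), Kif5A against input 1 in dorsal root and 0 in sciatic nerve, and the difference and Kif5A against IgG in sciatic nerve 0. The cause was not tested.

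With a replicate block, Kif5A against IgG gave 1 gene in sciatic nerve, the difference 0, and IgG against input 621 in dorsal root and 656 in sciatic nerve, pairs whose equal numbers did not all correlate above 0.1. In the comparisons whose equal numbers all correlated above 0.1, the block changed no call of a member, and the inputs gave 682 genes against 503. The Fbxl20 ratio for dorsal root turned to 0.078 with the block.

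With 1 library left out, counts ranged from 0 to 2 genes for Kif5A against IgG in dorsal root, 0 to 29 in sciatic nerve and 0 to 24 for the difference, with 0 members throughout. They ranged from 0 to 1 and 0 to 6 genes for Kif5A against input in dorsal root and sciatic nerve. IgG against input ranged from 5 to 1339 genes (1 to 5 members) in dorsal root and 53 to 849 (0 to 3) in sciatic nerve, and the inputs from 220 to 2538 (0 to 2). Ratios of Kif5A to IgG near 0 changed sign. In dorsal root Cul1 ran from -0.57 to 0.54, Fbxl20 from -0.62 to 0.81, Fbxo2 from -0.37 to 0.54 and Rbx1 from -0.49 to 0.22. In sciatic nerve Cand1 ran from -0.36 to 0.083, Cand2 from -0.47 to 0.23, Cul1 from -0.23 to 0.42, Fbxo45 from -0.27 to 0.083 and Rbx1 from -0.42 to 0.15. With library size alone, Cand2 (0.0022), Cul1 (0.035) and Fbxo45 (0.0115) in sciatic nerve turned positive. That scaling raised the median of all genes by 0.33 and 0.18 for Kif5A against input in dorsal root and sciatic nerve and by 0.24 for IgG against input in dorsal root.

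A member with no count in a group has only a bound, set by depth.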
